A study of Mus musculus with 8 samples.

Results

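The genes for the 5 NF-kB subunits (Nfkb1, Nfkb2, Rel, Rela and Relb) and for 5 of their inhibitors and regulators (Nfkbia, Nfkbib, Nfkbie, Tnfaip3 and Bcl3) were examined in activated B cells that lacked or retained the translation initiation factor EIF4A1. These 10 genes were taken by name from the 53242 genes of the deposited tables, and all 10 had enough counts to be tested. The B cells came from spleens of C57BL/6 mice aged 8 to 12 weeks, either Eif4a1 fl/fl Cd23-cre (4A1 KO) or Eif4a1 +/+ Cd23-cre (control). They grew on irradiated CD40LB cells for 24 h in medium containing IL4 (40 ng/ml). CD40LB cells are feeder cells that display CD40 ligand and secrete the cytokine BAFF, and they were removed with antibody-coated beads before RNA was prepared. Both genotypes carried Cd23-cre, which is active from the immature B cell stage in the spleen. There were 4 libraries per genotype, numbered 1 to 4, with males in replicates 1 and 3, females in replicates 2 and 4, batch A in replicates 1 and 2 and batch B in replicates 3 and 4. The study left out replicate 1 of both genotypes because of low viability, so the tests used replicates 2 to 4 (n = 3 per genotype), and replicate 1 is given beside them.

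NF-kB is a family of dimeric transcription factors. In a resting cell, IkB proteins hold dimers that contain RELA or REL in the cytoplasm until the IkB kinase complex marks the IkB for destruction, which is the canonical pathway. CD40 and the BAFF receptor also act through the kinase NIK, which leads to processing of the NFKB2 precursor and release of RELB dimers, the alternative pathway. Many NF-kB genes are themselves NF-kB targets, and the inhibitors among them give negative feedback. All of the values here are of mRNA; protein, precursor processing and location in the cell were not analysed here. In RNA of a whole culture, fewer cells expressing a gene and less RNA per cell cannot be told apart.

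The promoters of these genes are shown first because the κB consensus, the DNA letters that NF-kB dimers bind, occurs in some of them. The consensus searched was GGGRNNYYCC, where R is A or G, Y is C or T and N is any base. The window searched ran from 250 bases before to 50 bases after the start of each gene's canonical transcript (300 bases, GRCm39, both strands). A match was found in 4 of the 10 windows (40%), and 2 of the 10 (20%) held at least 2. Of the windows of 21757 protein-coding genes, 1952 (8.97%) held a match and 290 (1.33%) held at least 2. The matches lay in Relb, Nfkbia, Nfkbie and Tnfaip3, and each is given 5′ to 3′ on the strand of the gene, with the 10 matching bases in capitals and 8 bases on each side. A match describes these letters and not a bound site.
Relb, 37 bases before the start (chr7:19363443-19363468, minus strand): gagcagcgGGGGTTTTCCcattccct
Relb, from base 37 of the transcript (chr7:19363370-19363395, minus strand): gcggcgccGGGGAATTCCgccgcccc
Nfkbia, 29 bases before the start (chr12:55539444-55539469, minus strand): actggcttGGAAATTCCCcgcgcctg
Nfkbie, 86 bases before the start (chr17:45866512-45866537, plus strand): agcaaacaGGGGGATTCCggaggggc
Tnfaip3, 97 bases before the start (chr10:18891266-18891291, minus strand): ctcacgcgGGGACACCCCggggcggg
Tnfaip3, from base 17 of the transcript (chr10:18891153-18891178, minus strand): tttccatcGGAAATCCCCctgttggc
The first Tnfaip3 match reads as the consensus on both strands and was counted once. The Nfkbia match and the second Tnfaip3 match read as the consensus on the strand opposite to the one printed. The 4 genes with a match did not all change in one direction.

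In 4A1 KO B cells the mRNA of all 5 subunits rose, and so did that of 4 of the 5 inhibitors, while Nfkbie fell. Relb (log2 fold change 0.77), Tnfaip3 (0.68), Nfkb1 (0.65), Rela (0.65) and Bcl3 (0.61) passed both thresholds of the study, 0.05 for the adjusted p and 0.5 for the size of the log2 fold change. These were 5 of the 10 genes, all increased, beside 11.6% of the 14218 genes tested that were increased by the same rule and 13.7% that were decreased. At an adjusted p under 0.05 whatever the size of the change, 9 of the 10 rose and 1 fell, beside 26.3% and 26.7% of all genes (53.0% in either direction). Most of the 10 genes were abundant, and the shares of all genes were not matched for abundance. The median log2 fold change was 0.65 over the subunits (from 0.33 to 0.77) and 0.46 over the inhibitors (from -0.35 to 0.68), against 0.01 over all genes. The tests were edgeR's quasi-likelihood test with batch and sex as covariates and Benjamini-Hochberg adjustment over all genes, two-sided, and fold changes are 4A1 KO over control.

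**Figure D1:**
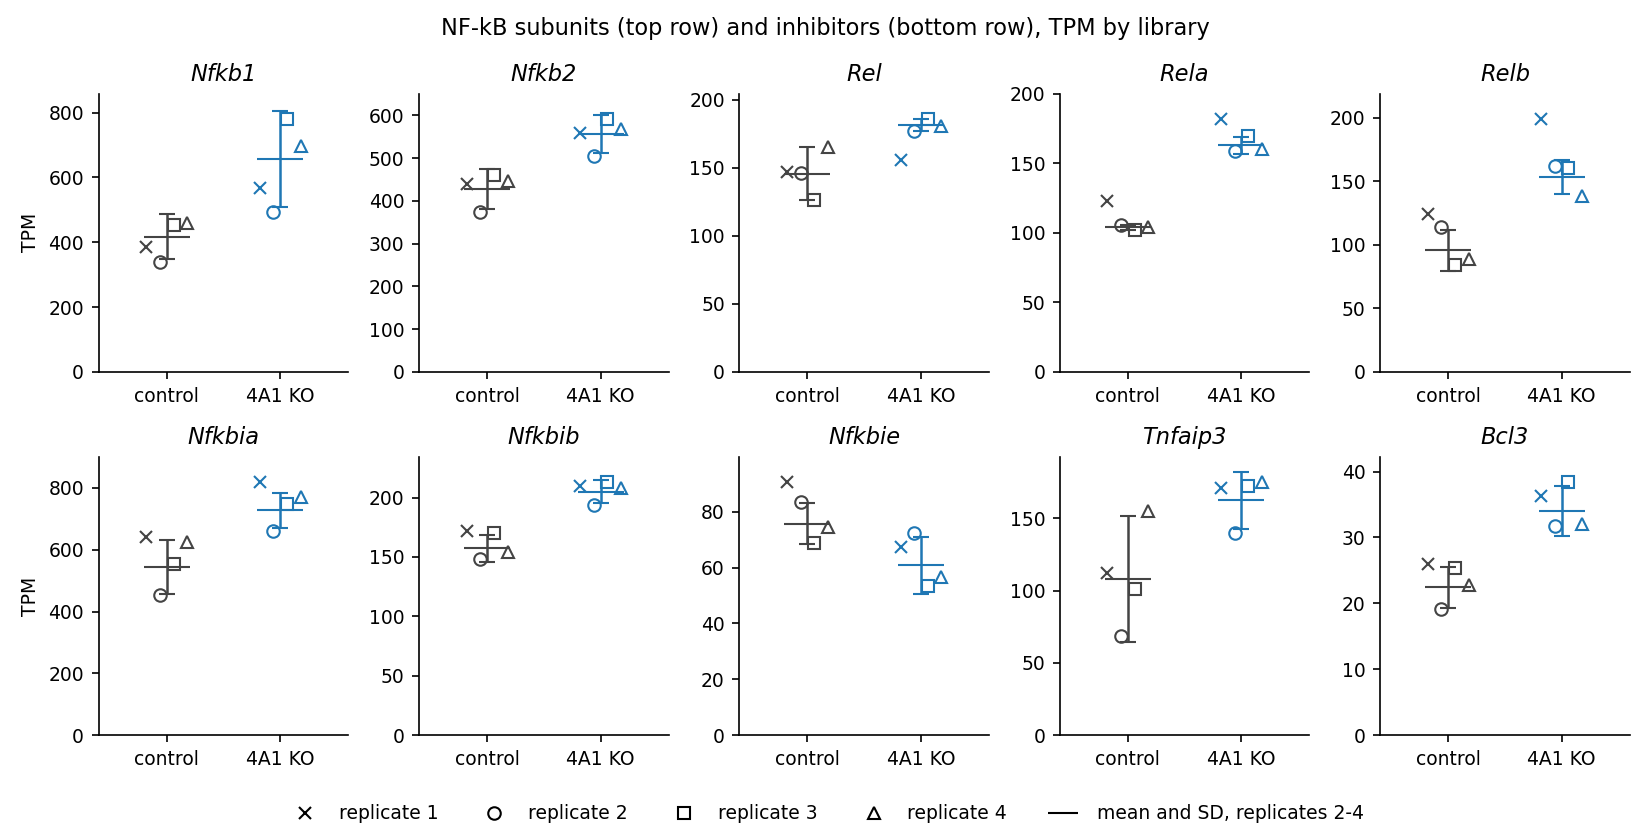
Level of each gene in TPM (relative transcript abundance, a scale corrected for transcript length) in the 8 libraries, with the 5 subunits above and the 5 inhibitors and regulators below. Symbols mark replicates 1 to 4, horizontal lines and bars are the mean and SD of replicates 2 to 4, and each axis starts at 0; 4A1 KO libraries of Nfkb1, Nfkb2, Rela and Relb all lie above the controls, and those of Nfkbie lie mostly below.

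Nfkb1 and Nfkb2 encode p105 and p100, precursors that yield the DNA-binding p50 and p52 and that hold back other subunits while unprocessed. Nfkb1 (ENSMUSG00000028163, chromosome 3, 135290264 to 135397742, minus strand, 25 exons) had 387, 338, 454 and 460 TPM in the controls, in the order of replicates 1 to 4 that is kept for all genes, and 567, 493, 781 and 697 in 4A1 KO. Every 4A1 KO library was above every control, although 4A1 KO 2 was close to the highest control. Normalised counts rose from 883 ± 137 to 1390 ± 297 CPM (counts scaled to a common library size, SD, n = 3), 1.57-fold, with a log2 fold change of 0.65 (SE 0.05, adjusted p = 2.26e-05 from edgeR). The increase was between 0.56 and 0.76 in each of the 4 same-numbered pairs. A predicted gene on the same strand, Gm43430, overlaps Nfkb1 but held at most 31 counts in any library.

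Nfkb2 (ENSMUSG00000025225, chromosome 19, 46292759 to 46303812, plus strand, 23 exons) had 439, 374, 461 and 447 TPM in the controls and 559, 506, 592 and 569 in 4A1 KO. The genotypes did not overlap, and the change was smaller than that of Nfkb1. The log2 fold change was 0.41 (SE 0.04, adjusted p = 8.37e-05 from edgeR), 1.33-fold, from 697 ± 71.8 to 926 ± 68.8 CPM (SD, n = 3). Its 4 pairs were close together, at 0.39, 0.47, 0.39 and 0.38. Nfkb2 therefore passed the adjusted p but not the fold threshold.

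Rel, Rela and Relb encode the subunits that carry a transactivation domain. Rel, the c-REL subunit that is prominent in lymphocytes, lies on chromosome 11 (ENSMUSG00000020275, 23686847 to 23721264, minus strand, 10 exons), 45.8 Mb from Eif4a1 itself. It had 147, 146, 126 and 165 TPM in the controls and 156, 177, 186 and 181 in 4A1 KO, so that control 4 was above 4A1 KO 1. In CPM the controls reached 634 and the lowest 4A1 KO library had 659, without overlap. The log2 fold change was 0.33 (SE 0.07, adjusted p = 0.00384 from edgeR), the smallest of the subunits, and the pairs ranged from 0.12 to 0.56. Pair 3 was the highest and without replicate 3 the value was 0.22, while without replicate 4 it was 0.42.

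Rela, which encodes the p65 subunit of the classical p50 and p65 dimer, varied little between controls 2 to 4, but control 1 was higher. It had 123, 106, 102 and 104 TPM in the controls and 182, 159, 170 and 160 in 4A1 KO (ENSMUSG00000024927, chromosome 19, 5687493 to 5698161, plus strand, 11 exons). The lowest 4A1 KO library stood well above the highest control. CPM rose from 145 ± 4.52 to 228 ± 12.1 (SD, n = 3), and the log2 fold change was 0.65 (SE 0.05, adjusted p = 2.01e-05 from edgeR), with pairs from 0.60 to 0.73. The coefficient of variation of its CPM was 3.12% in controls 2 to 4 and 11% with control 1 included, against 35.9% and 29.1% for Tnfaip3.

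Relb, the subunit of the alternative pathway, had the largest change and the smallest adjusted p of the 10 genes in this fit of the counts. In TPM the smallest adjusted p was that of Rela (0.000711, limma), and without replicate 4 the largest change was that of Tnfaip3 (0.91). Relb (ENSMUSG00000002983, chromosome 7, 19339017 to 19363425, minus strand, 12 exons) had 124, 114, 84.3 and 88.8 TPM in the controls and 199, 162, 160 and 138 in 4A1 KO. The genotypes did not overlap, but both were higher in batch A, so the highest control and the lowest 4A1 KO library were near each other. The log2 fold change was 0.77 (SE 0.05, adjusted p = 1.69e-05 from edgeR), 1.71-fold, from 120 ± 18.4 to 205 ± 23.3 CPM (SD, n = 3), and its pairs lay between 0.67 and 0.88. Like Tnfaip3, Relb has a κB match on each side of its start site.

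The classical IkB proteins bind NF-kB dimers and are the direct targets of the IkB kinases. Nfkbia encodes IkBα, the IkB that is rapidly resynthesised after activation. It had 641, 454, 554 and 625 TPM in the controls and 819, 662, 748 and 772 in 4A1 KO (ENSMUSG00000021025, chromosome 12, 55535332 to 55539432, minus strand, 6 exons). The lowest 4A1 KO library was just above the highest control. CPM rose from 453 ± 61.3 to 610 ± 37.7 (SD, n = 3), and the log2 fold change was 0.44 (SE 0.05, adjusted p = 0.00016 from edgeR). The pairs ranged from 0.33 to 0.56.

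Nfkbib encodes IkBβ and changed by nearly the same amount as Nfkbia. It had 172, 148, 170 and 154 TPM in the controls and 210, 194, 213 and 208 in 4A1 KO, without overlap (ENSMUSG00000030595, chromosome 7, 28457486 to 28466937, minus strand, 6 exons). Its log2 fold change was 0.46 (SE 0.05, adjusted p = 7.32e-05 from edgeR), from 107 ± 8.01 to 147 ± 8.75 CPM (SD, n = 3). Its pairs, 0.48, 0.47, 0.44 and 0.47, were close together in CPM, and in TPM they ran from 0.28 to 0.43.

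Nfkbie, which encodes IkBε, the IkB associated with REL and RELA dimers, was the gene that fell. It had 90.6, 83.5, 68.9 and 74.6 TPM in the controls and 67.2, 72.5, 53.3 and 56.5 in 4A1 KO (ENSMUSG00000023947, chromosome 17, 45866585 to 45874661, plus strand, 6 exons). Across all 8 libraries the genotypes overlapped, since 4A1 KO 2 was above control 3, but within each of the 4 pairs the 4A1 KO library was the lower one. Its CPM went from 109 ± 9.81 to 86.7 ± 16.1 (SD, n = 3). This was a log2 fold change of -0.35 (SE 0.06, adjusted p = 0.00137 from edgeR), with pairs from -0.46 to -0.20. The call rests on comparing libraries of the same batch and sex, and without that block the adjusted p was 0.0786. Its promoter holds a κB match, as do those of Relb, Nfkbia and Tnfaip3, which rose.

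Tnfaip3 encodes A20, a ubiquitin-editing enzyme that switches off signalling upstream of the IkB kinases. It had 112, 68.8, 101 and 155 TPM in the controls and 171, 140, 172 and 175 in 4A1 KO (ENSMUSG00000019850, chromosome 10, 18874201 to 18891405, minus strand, 9 exons). The 4A1 KO libraries were close together except for 4A1 KO 2, whereas the controls were spread out and control 4 was above 4A1 KO 2. The log2 fold change was 0.68 (SE 0.12, adjusted p = 0.00164 from edgeR), from 291 ± 104 to 447 ± 45 CPM (SD, n = 3), with the largest error of the 10 genes. The pairs were 0.63, 1.02, 0.80 and 0.21, and the value was 0.51 without replicate 2 and 0.91 without replicate 4. Without the block the adjusted p was 0.0655, and the log2 fold change was then 0.62. The study shrank its fold changes before it applied the threshold. Under DESeq2 with that shrinkage Tnfaip3 stood at 0.50 (adjusted p = 0.0145), at the edge of the fold threshold.

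Bcl3 encodes an IkB-like nuclear protein that binds p50 and p52 homodimers and can activate as well as repress. It was the least abundant of the 10, at 26, 19.1, 25.4 and 22.8 TPM in the controls and 36.3, 31.7, 38.4 and 32 in 4A1 KO (ENSMUSG00000053175, chromosome 7, 19541553 to 19557570, minus strand, 9 exons). The genotypes did not overlap. The log2 fold change was 0.61 (SE 0.08, adjusted p = 0.000191 from edgeR), 1.53-fold, from 21.6 ± 3.06 to 33 ± 3.59 CPM (SD, n = 3), and the pairs lay between 0.47 and 0.75. Even its lowest library held 754 counts of this gene.

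**Figure D2:**
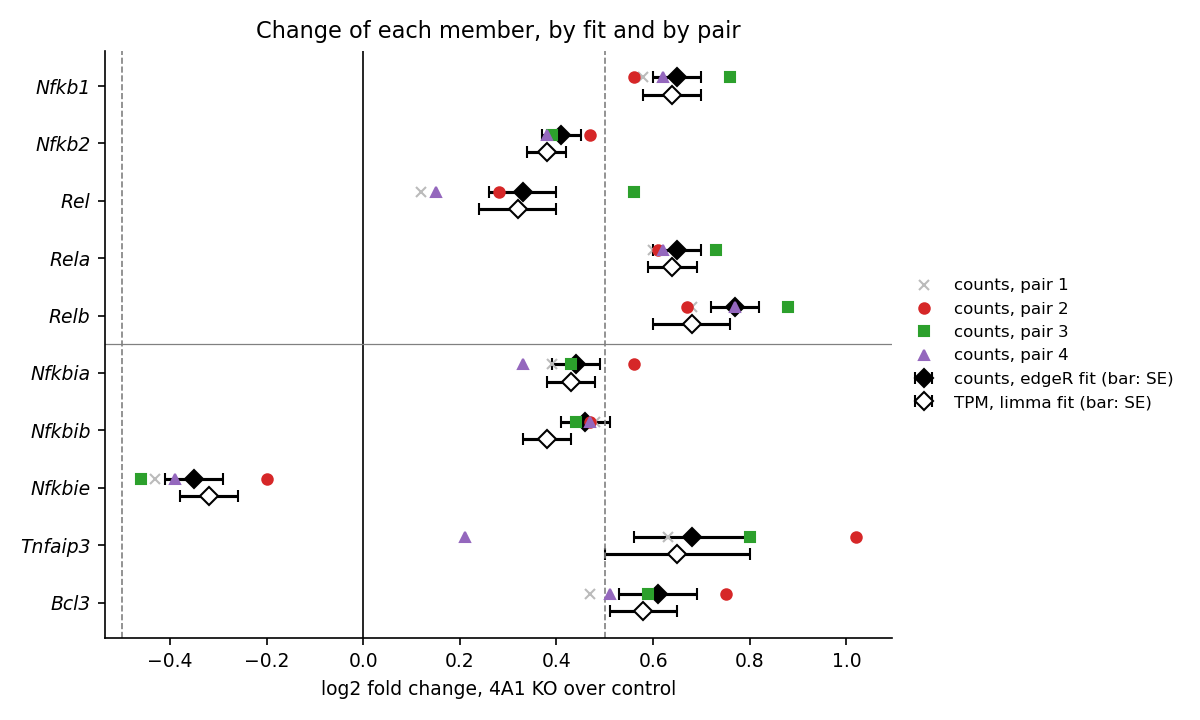
Log2 fold change of each gene, 4A1 KO over control, from the edgeR fit of the counts (filled diamonds) and the limma fit of log2(TPM + 1) (open diamonds), with bars of 1 SE, and from each same-numbered pair (coloured symbols; pair 1 was not in the fits). Dashed lines mark 0.5 in either direction; 9 genes lie to the right of 0 in all 4 pairs and Nfkbie lies to the left, and the pairs of Tnfaip3 spread from 0.21 to 1.02.

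Of the 10 genes, 8 had every 4A1 KO library above every control in CPM over all 8 libraries, the exceptions being Nfkbie and Tnfaip3, and none had every 4A1 KO library below. Over all genes 17.2% were higher without overlap and 19.6% were lower. In TPM 7 genes were without overlap, Rel being the further exception, beside 35.6% of all genes in either direction. The TPM, a separate quantification of the same libraries, gave 9 increases and 1 decrease at an adjusted p under 0.05 (limma on log2(TPM + 1)), beside 24.1% and 26.6% of the 12976 genes tested. The calls of Rel and Tnfaip3 in TPM were lost with no filter on low values (adjusted p = 0.116 and 0.104, limma), at 0.32 and 0.65. Both were also lost without replicate 3 (0.20 and 0.59), that of Rel without replicate 2 (0.34), and those of Tnfaip3 and Nfkbie without the block (adjusted p = 0.0971 and 0.0904). The TPM changes were 0.64 for Nfkb1, 0.38 for Nfkb2, 0.32 for Rel, 0.64 for Rela and 0.68 for Relb. They were 0.43 for Nfkbia, 0.38 for Nfkbib, -0.32 for Nfkbie, 0.65 for Tnfaip3 and 0.58 for Bcl3. The largest distance from the counts was that of Relb, 0.68 against 0.77. With replicate 1 included, so in all 8 libraries, edgeR again had 5 genes past both thresholds, beside 25.6% of all genes in either direction, and 10 past the adjusted p, beside 56.5%.

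TPM is corrected for length, so levels can be compared between genes. Without loss of EIF4A1, Nfkbia was the most abundant, at 544 ± 85.9 TPM (SD, n = 3), followed by Nfkb2 at 427 ± 46.9 and Nfkb1 at 417 ± 69, which did not differ beyond their spread. Nfkbib (157 ± 11.7) and Rel (146 ± 19.8) came next and were also within their spread of each other. Tnfaip3 (108 ± 43.7), Rela (104 ± 1.88) and Relb (95.6 ± 15.9) could not be ordered, and Nfkbie (75.7 ± 7.34) and Bcl3 (22.4 ± 3.12) were lowest. Among the genes tested, Bcl3 stood at the percentile 53.6 of control TPM, and the other members stood between 80.5 (Nfkbie) and 97.8 (Nfkbia). In 4A1 KO the order was the same except that Nfkb1 (657 ± 148) stood above Nfkb2 (556 ± 44.6), within their spread, and Rela (163 ± 6.21) stood beside Tnfaip3 (162 ± 19.5).

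The summed TPM of the 5 subunits was 1080 to 1270 in the 4 controls and 1500 to 1890 in the 4 4A1 KO libraries, without overlap, and the ratio of the means of replicates 2 to 4 was 1.44. The summed TPM of the 3 classical IkB genes was 685 to 904 and 928 to 1100, also without overlap, with a ratio of 1.28. The IkB sum divided by the subunit sum was 0.741 in control 1 and 0.659 in 4A1 KO 1, 0.635 and 0.62 in pair 2, 0.646 and 0.537 in pair 3, and 0.674 and 0.594 in pair 4. It was lower in 4A1 KO in every pair, but the genotypes overlapped. Nfkbia TPM alone over the subunit sum was less even. It was 0.526 in control 1 and 0.493 in 4A1 KO 1, but in pair 2 it was higher in 4A1 KO (0.421 and 0.442). In pairs 3 and 4 it was lower, at 0.451 and 0.396, and at 0.494 and 0.442. Its genotypes also overlapped. These ratios were not tested, and they count mRNA only.

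The Nfkb2 share of the subunit TPM was 34.7% to 37.6% in the controls but 31.3% to 33.8% after deletion, without overlap, although its own level rose. The shares of Nfkb1, Rel, Rela and Relb overlapped between the genotypes over all libraries, but within the pairs of the same batch and sex each moved one way. Those of Nfkb1, Rela and Relb were higher in 4A1 KO in 4 of 4 pairs, and that of Rel was lower in 4 of 4. In the means of replicates 2 to 4, Nfkb1 went from 34.9% to 38.1%, Rel from 12.3% to 10.7%, Rela from 8.81% to 9.61% and Relb from 8.15% to 9.06%. Nfkbie made up 10%, 12.2%, 8.69% and 8.75% of the IkB TPM in the controls, by replicate number, and 6.12%, 7.81%, 5.25% and 5.45% in 4A1 KO. Its share was below that of every control in every 4A1 KO library.

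**Figure D3:**
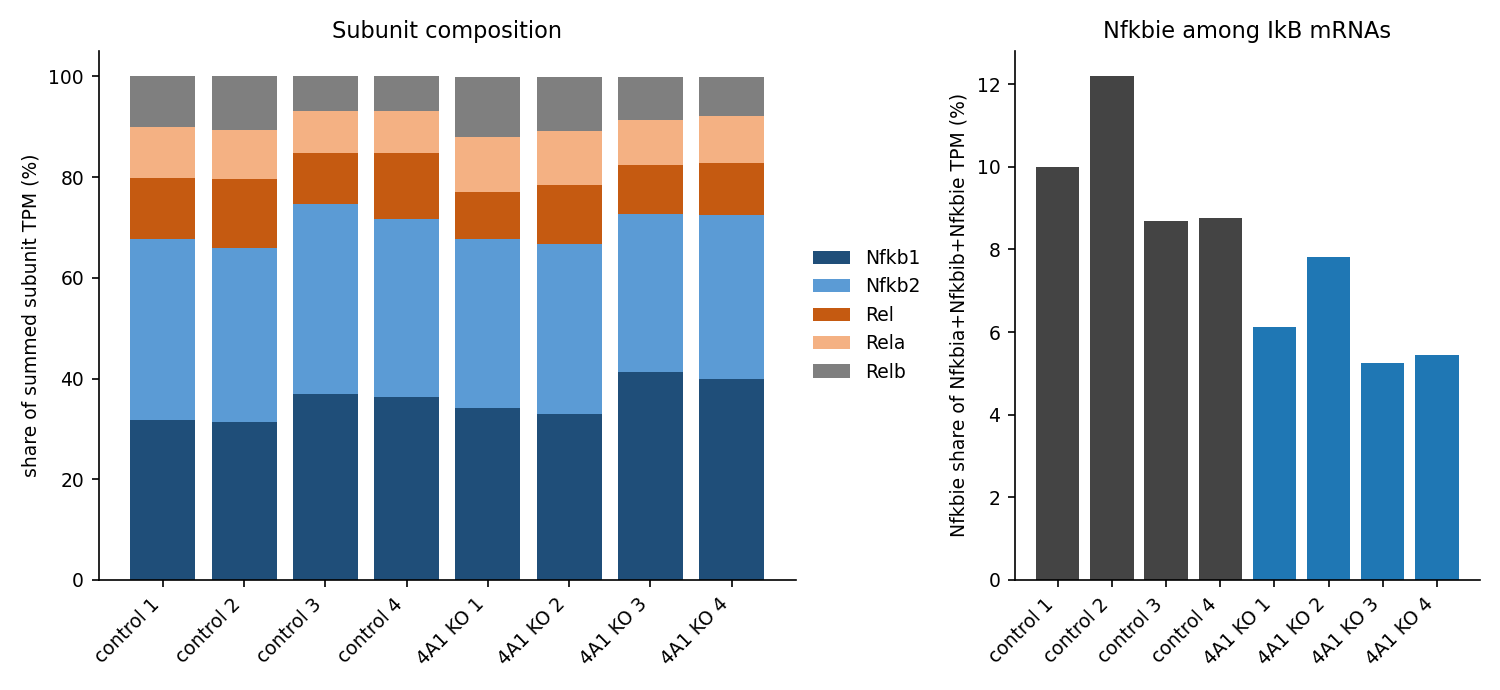
Left, share of each subunit in the summed TPM of the 5 subunits (%), one bar per library. Right, share of Nfkbie in the summed TPM of Nfkbia, Nfkbib and Nfkbie (%), controls in grey and 4A1 KO in blue; Nfkbie lies between 8.69% and 12.2% in controls and between 5.25% and 7.81% in 4A1 KO.

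Some of the 10 genes also differed between batches or sexes, 4 for batch and 5 for sex at an adjusted p under 0.05. These differences come from the fit over all 8 libraries with batch, sex and genotype (edgeR), in which 28.2% of all genes passed an adjusted p under 0.05 for batch and 6.88% for sex. Nfkb1 was higher in batch B (1260 against 977 mean CPM, log2 difference 0.36, SE 0.04, adjusted p = 0.000834). Relb was lower in batch B (153 against 200 mean CPM, -0.41, SE 0.05, adjusted p = 0.000555), and so were Nfkbie (90.7 against 117, -0.37, adjusted p = 0.00144) and Rela (-0.16, adjusted p = 0.0282). The batches thus moved Nfkb1 and Relb in opposite directions, unlike the genotype, under which both rose. In replicates 2 to 4 alone, batch A is replicate 2 only. With sex in the fit, the batch term there compares replicate 4 with replicate 2, so batch and replicate cannot be told apart. The differences were then 0.41 for Nfkb1, -0.37 for Relb, -0.32 for Nfkbie and -0.09 for Rela. Those of Nfkbia and Tnfaip3 were 0.28 and 0.65, against 0.02 and 0.23 in all 8 libraries.

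Males had more Nfkbib (log2 difference 0.26, adjusted p = 0.0169), Relb (0.22, 0.0251), Bcl3 (0.29, 0.031), Nfkb2 (0.17, 0.0395) and Nfkb1 (0.17, 0.0491) in the 8 libraries. In replicates 2 to 4, without the batch A males of low viability, the males are replicate 3 only. The sex term there compares replicate 3 with replicate 4, so sex and replicate cannot be told apart. The 5 differences were smaller, at 0.17, 0.19, 0.24, 0.10 and 0.11 in the same order. The sex differences were therefore not shown without replicate 1. The effect of the genotype was not shown to depend on batch or sex. Of the 10 genes, 0 passed a test of the interaction of genotype with sex or with batch, and 0 did at an unadjusted p under 0.05 (edgeR, 8 libraries). Over all genes 0 passed the interaction with sex (405 at an unadjusted p under 0.05) and 1 passed that with batch (610 unadjusted, 0.00704% called). The largest fitted difference between batches was that of Tnfaip3, -0.33 (SE 0.33), whose pairs had a mean change of 0.82 in batch A and 0.51 in batch B.

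The other genes of the pathway were counted from 4 lists. Of 68 genes tested, 11 rose and 6 fell past both thresholds and 51 did neither, beside 11.6% and 13.7% of all genes, and their median log2 fold change was 0.13. Of the 11 upstream kinases and adaptors, 1 rose and 0 fell past both thresholds, and 5 rose and 3 fell at the adjusted p alone (edgeR), beside 26.3% and 26.7% of all genes. The gene past both was Tab3, an adaptor of the kinase TAK1, which rose from 24.1 to 38.6 CPM (0.68, SE 0.08, adjusted p = 0.00012). Chuk, which encodes the IkB kinase IKKα, had a log2 fold change of 0.07 (adjusted p = 0.316) and did not pass.

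Of 9 receptors and receptor adaptors, 0 rose and 2 fell past both thresholds, and 3 rose and 3 fell at the adjusted p alone (edgeR), beside 26.3% and 26.7% of all genes. Tnfrsf13c, the BAFF receptor, went from 311 ± 43.2 CPM to 158 ± 9.09 with loss of EIF4A1 (SD, n = 3, log2 fold change -0.97, SE 0.08, adjusted p = 3.34e-05). Traf5, an adaptor of CD40 and related receptors, fell by 0.69 on the log2 scale (adjusted p = 0.000224). Traf1 (-0.11, adjusted p = 0.175) and Birc2, a ubiquitin ligase that restrains NIK (0.08, adjusted p = 0.267), did not pass. The receptor of the BAFF that the feeder cells supply was thus lower in the same libraries in which Nfkb2 and Relb were higher.

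The next list held 14 further regulators of NF-kB, not all of them negative. Of these, 4 rose and 0 fell past both thresholds (all genes 11.6% and 13.7%). At the adjusted p alone 8 rose and 3 fell (edgeR, all genes 26.3% and 26.7%). Their median was 0.23, against 0.01 over all genes. Rnf31 (HOIP, a subunit of the linear ubiquitin ligase) rose from 48 ± 5.16 to 79.1 ± 2.69 CPM (0.73, SE 0.06, adjusted p = 3.41e-05). Zc3h12a (Regnase-1, an RNase that degrades inflammatory mRNAs) rose by 0.62, Tnip3 by 0.61 and Nfkbiz, a nuclear IkB, by 0.52. Without the block Rnf31 and Zc3h12a passed both thresholds, with Tnip3 at an adjusted p of 0.101 and Nfkbiz at a log2 fold change of 0.50. In all 8 libraries Nfkbiz did not pass (0.42, adjusted p = 0.0738). It was also under the fold threshold without replicate 2 (0.38) and without replicate 3 (0.49). Cyld, a deubiquitinase (-0.12, adjusted p = 0.141), and Tnip1 (0.06, adjusted p = 0.333) did not pass either.

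Of 34 NF-kB target genes, 6 rose and 4 fell past both thresholds, beside 11.6% and 13.7% of all genes, and the median was 0.13. Lta, lymphotoxin alpha, rose from 13.1 ± 1.07 to 22.5 ± 1.91 CPM (0.78, SE 0.08, adjusted p = 7.53e-05), and Plk3 rose by 0.67. Ccl22, a chemokine, fell from 4310 ± 788 to 2110 ± 806 CPM (-1.09, SE 0.10, adjusted p = 5.13e-05). The anti-apoptotic genes Bcl2a1d and Bcl2a1b fell by 0.92 and 0.73 on the log2 scale, but they are near-identical copies whose reads may be shared, so the split between them is uncertain. The count is uncertain with it, since 3 of the 4 falls are copies of this family, the third being Bcl2a1a, and 3 of the 6 rises, those of Ccl3, Ccl4 and Cxcl10, had a mean of at most 2.19 CPM in either genotype (named after their values were seen). DESeq2 without shrinkage called 4 rises and 3 falls. Irf4 (-0.15, adjusted p = 0.101) and Myc (-0.01, adjusted p = 0.939) did not pass, and Myc varied widely in controls (487 ± 172 CPM). Without replicate 2 both reached an adjusted p under 0.05, Irf4 at -0.23 (adjusted p = 0.047 from edgeR) and Myc at -0.27 (adjusted p = 0.00895), whereas Myc was at 0.12 without replicate 3 or 4. At the adjusted p alone 12 target genes rose and 9 fell, beside 26.3% and 26.7% of all genes.

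**Figure D4:**
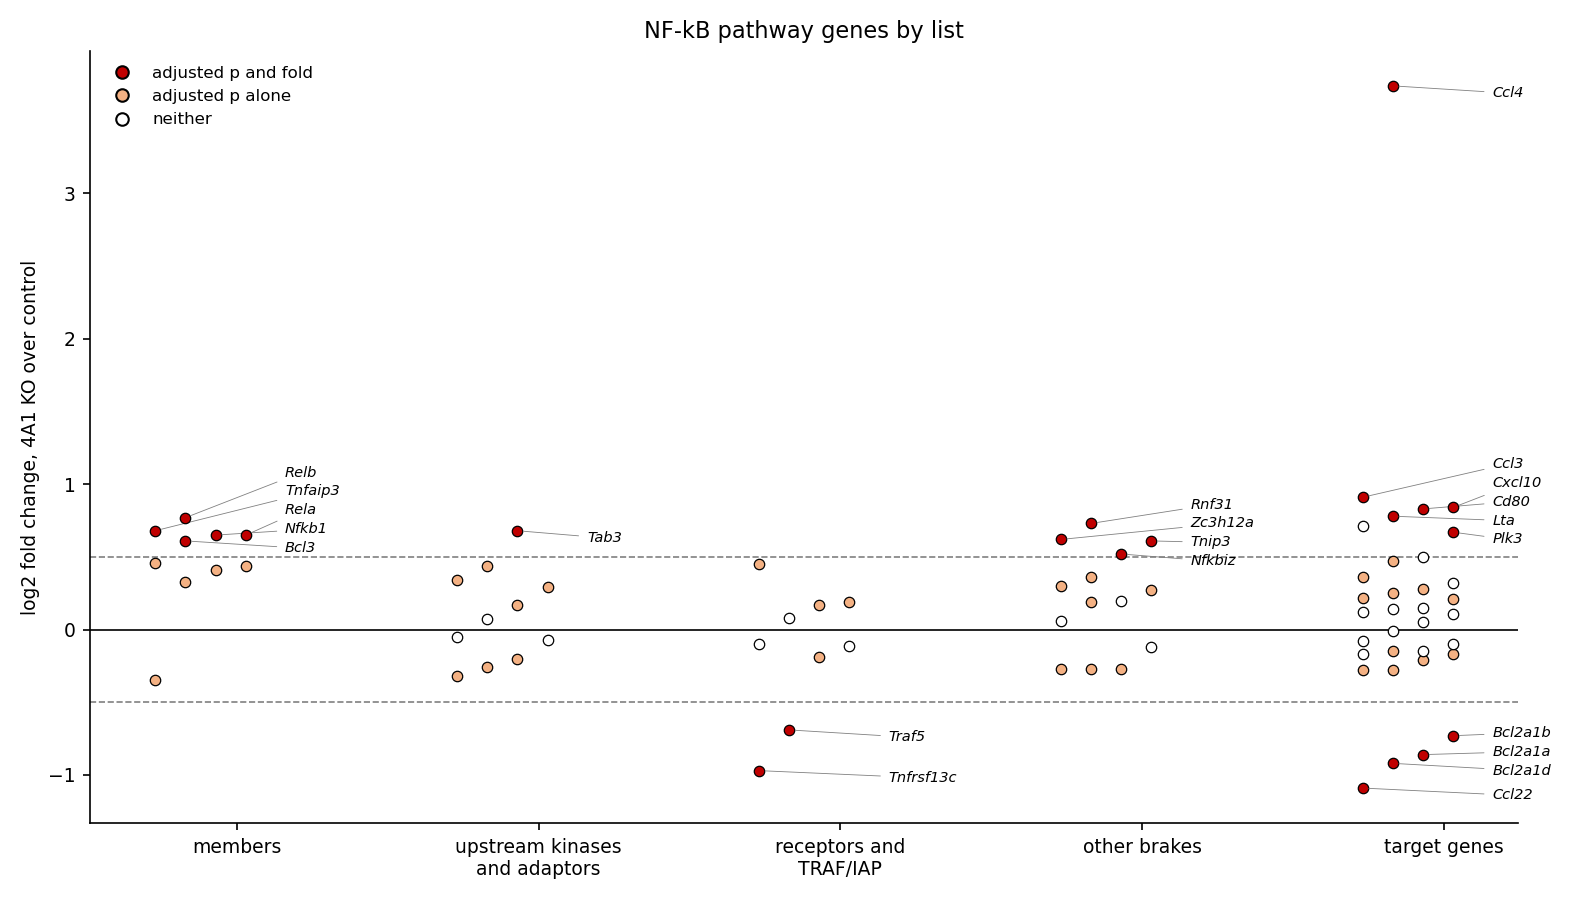
Log2 fold change (4A1 KO over control, edgeR, replicates 2 to 4) of the 10 genes and of the 4 lists of pathway genes, 1 point per gene, coloured by whether it passed the adjusted p and the fold threshold (dashed lines, 0.5 in either direction). The 10 genes lie above 0 except Nfkbie, and the target genes spread to both sides; Ccl4, labelled because it stands apart, had at most 0.124 CPM in controls and 1.04 in 4A1 KO.

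By the rule for likeness, the genes whose log2 CPM followed that of Relb most closely over the 8 libraries were Insyn1 (Pearson's r 0.994), Gm48146 (0.993) and Rnf166 (0.993). They are the closest of many, since 306 of 14210 genes had an r above 0.95, and the points share genotype, batch and library.

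Eif4a1 was lower in 4A1 KO, at 629 ± 67.4 against 856 ± 98.1 CPM (SD, n = 3), and its log2 fold change was -0.44 (SE 0.05, adjusted p = 0.000115 from edgeR), without overlap of the genotypes. Reads from the deleted exons were not separated from those of the rest of the gene. Total counts were 38488341 to 43210858 in replicates 2 to 4, and 31727557 was the lowest total of all 8. B cell markers were abundant in every library, summing to 9210 to 11000 CPM in control and 8890 to 9490 in 4A1 KO. Of these 8 markers, 4 fell past both thresholds (Cd79a, Cd79b, Cd22 and Ighm), whereas Ms4a1 was 517 to 653 CPM in control and 584 to 644 in 4A1 KO, and at the adjusted p alone Fcer2a rose (0.30, adjusted p = 0.00116 from edgeR) and Pax5 fell (-0.23, 0.00229). Fibroblast markers, which could come from feeder cells, summed to 12.6 to 59.5 and 19.9 to 34.9 CPM, with 1 higher (Fn1), 1 lower (Col3a1) and 7 of 15 under 1 CPM in every library. T cell markers summed to 15 to 25 and 10.4 to 19.6 CPM, and myeloid markers to 4.09 to 8.14 and 7.31 to 9.06, with 6 of 8 under 1 CPM in every library in each list. Lck, which made up most of the T cell sum, fell at the adjusted p alone (-0.40, adjusted p = 0.00518 from edgeR), and Adgre1 was the myeloid marker that rose past both thresholds. Plasma cell markers summed to 622 to 929 and 549 to 691 CPM, and 3 of 5 fell past both thresholds (Prdm1, Xbp1 and Sdc1). Most of this sum was Irf4 (mean 588 and 516 CPM over all 8 libraries), which is also among the target genes above. The part of other cell types in the changes of the 10 genes was not tested.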

How the data were processed

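RNA-seq of 8 libraries, 4 per genotype, was used, with genotype, sex, batch and replicate number from the labels. The authors trimmed the reads with Trim Galore 0.6.6, mapped them to GRCm39 with HISAT2 2.1.0, and deposited raw counts from Seqmonk over merged isoforms, with strand taken into account. TPM, also deposited, were computed by the authors in StringTie 2.1.1. How reads with several matches were counted is not given in the sources used here. The proteome was not analysed here.

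Counts were analysed with edgeR 4.0.16 in R 4.3.3 (filterByExpr, TMM, quasi-likelihood test, batch, sex and genotype, replicates 2 to 4), and TPM with limma 3.58.1 on log2(TPM + 1), for the 12976 genes whose mean TPM reached 1. SE was the absolute log2 fold change over the root of F. Tests were two-sided, adjusted by Benjamini-Hochberg. Per the study's methods, replicates are separate mice. Same-numbered libraries share batch and sex, so in replicates 2 to 4 those covariates equal the replicate number as a block; over all 8 libraries they have one term fewer. After subtraction of each genotype's mean they correlated at r of 0.594, 0.502 and 0.432 across genes. No 2 libraries held identical counts. Coordinates and promoter windows came from GRCm39 and GENCODE M39, in which 52647 of 53242 identifiers were found.

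The 10 genes and the pathway lists were chosen with earlier results of these data known. Other genes are named by a rule: of each list, up to 5 past both thresholds with the smallest adjusted p and up to 2 abundant ones that did not pass, plus the 3 most like Relb, Eif4a1 and the markers. Some genes that this rule names are not reported here. Ccl4 was named after its values were seen. The batch and sex differences were added after the data were seen. Mir155hg was not used here. The alternatives were DESeq2 1.42.0 with and without shrinkage, other normalizations, filters and pseudocounts, no block, all 8 libraries and leaving out each replicate. The code was tested on simulated data.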

Additional observations from a re-analysis of the deposited data

Results flagged for a closer look

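In 4 of the 60 groups of 4 libraries examined, 1 library stood apart from the other 3 by Dixon's criterion (how far it lies from its neighbour, as a part of the whole spread), where chance gives about 1 in 20, or 3. None of these was a subunit or one of the inhibitors described above. Zc3h12a was high in control 1 (52.3 CPM, against 19 to 24.5 in the other controls, a part of 0.834) and in 4A1 KO 1 (72.7 CPM, against 31.5 to 36.1, 0.890), the libraries of low viability. Nfkbiz was high in 4A1 KO 1 as well (64.5 CPM, against 45.7 to 46.7, 0.947). Bcl2a1d was high in 4A1 KO 4 (83.7 CPM, against 70 to 71.6, 0.878).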

How the results depend on the processing

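Over the alternatives run on the counts, 5 of the 10 genes passed both thresholds in all of them except the fit without the replicate block, where 4 did. Likewise 10 passed the adjusted p except without the block, where 8 did. Without the block Tnfaip3 (0.62, adjusted p = 0.0655) and Nfkbie (-0.34, adjusted p = 0.0786) no longer passed. In TPM the count of 10 became 8 with no filter on low values and 8 without the block, and 8 to 10 when 1 replicate was left out. Rel lost its call in TPM with no filter (0.32, adjusted p = 0.116) and without replicate 2 (0.0561) or 3 (0.0713). Tnfaip3 did so with no filter (0.104), without the block (0.0971) and without replicate 3 (0.063), and Nfkbie without the block (0.0904). None of the 10 genes reversed its direction between genotypes under any alternative. Of the pathway genes outside the 10, between 14 and 20 passed both thresholds, against 17 reported, with 14 without the block, under DESeq2 without shrinkage and without replicate 3. Myc, which was not past the threshold, changed sign to 0.01 under upper quartile normalization and to 0.12 without replicate 3 or 4, and its leave-one-out values ran from -0.27 to 0.12. Batch and sex differences were also taken from replicates 2 to 4 alone, an alternative added after the data were seen. Those of Rel for batch (0.05) and of Nfkbia (-0.07), Nfkbie (-0.03) and Tnfaip3 (-0.27) for sex changed sign. None of these was past the threshold in the fit over 8 libraries. The cause of these changes was not tested. The normalizations placed the median of all genes between 0.003 and 0.029. With 3 libraries per genotype, an exact permutation test that ignored the replicate block could not go below p = 0.1. For one that swapped genotypes only within same-numbered pairs, the lowest possible p is higher.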
